A study of Punica granatum with 8 samples.

Results

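In pomegranate hairy roots, 22 genes were set apart from all other libraries in both libraries labelled line 1712, 8 of them higher there and 14 lower. They were taken from the 18831 genes listed, of which 14869 had a mean of at least 10 normalized counts over the 8 libraries. A normalized count is the read count of a gene divided by 1 size factor per library. A gene was selected on its measured values, as higher when its lowest line 1712 value was at least 2 times the highest value of the other 6 libraries, and as lower when the lowest of those 6 was at least 2 times the highest line 1712 value. Genes in which the PgMyb308-like and EV libraries did not overlap were then left out. This kept 0.0538% of the 14869 genes as higher and 0.0942% as lower. The members' values are given as a description, and no p-value is given for a member.

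Hairy roots were induced on seedlings of cultivar PG116-17 with Agrobacterium rhizogenes and grown for 3 months in a greenhouse before RNA was taken from whole young roots. The 3 PgMyb308-like lines overexpress the R2R3 Myb factor PgMyb308-like from the constitutive 35S promoter, and the 3 empty vector (EV) lines carry the same vector without it. The 2 line 1712 libraries are labelled as overexpressing the R2R3 Myb PgMyb308, under another sequence record than PgMyb308-like, and bear the line numbers 1 and 6. The labels do not say whether the numbers 1 and 6 stand for separate transformation events, and the text of the paper does not speak of line 1712, so that its promoter is not given in the sources used here. The paper selected its PgMyb308-like and EV roots by the green fluorescent protein of the vector, so that both are transformed. Its text does not give this for line 1712, whose libraries are labelled as transgenic. No group is labelled as wild type. With 2 libraries under 1 name, an effect of the construct and an effect of the roots that carry it cannot be told apart.

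R2R3 Myb proteins are plant transcription factors that bind DNA through a pair of Myb repeats. Those of subgroup S4, to which PgMyb308-like belongs, are known for acting on genes of phenylpropanoid metabolism, which supplies lignin and flavonoids, and in several plants as repressors. In hairy roots the bacterium places DNA at a different site of the genome in each transformation event, so that lines also differ by insertion and by growth.

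TranSeq sequences transcripts from their 3′ end. Counts are thus independent of gene length, and levels of different genes can be set beside each other, apart from differences in how well each 3′ end is captured. Library totals ran from 1263321 to 3976951 counts, and those of line 1712 were 3976951 and 1507120, so that replicate 1 of line 1712 was the deepest library of the 8. At these depths the limit that a count of 0 allows (3 counts) ran from 1.69 to 5.45 normalized counts. Genes are given by their RefSeq locus symbol and their position in ASM765513v2. That annotation table holds no product names, and no role is given here for any of the 22 genes. In whole roots, fewer cells of a type and less RNA per cell cannot be told apart.

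Any 2 of the 8 libraries can lie above or below all others in some genes, and the share for an arbitrary pair was not worked out. At any fold, line 1712 lay above all other libraries in 318 genes (2.14% of the 14869) and below all of them in 380 (2.56%). At a fold of 2, 9 and 16 were left, and 1 and 2 of these were dropped because PgMyb308-like and EV did not overlap. The dropped gene on the higher side was LOC116192758, with 226 and 300.1 normalized counts in line 1712, 50.6 to 105 in the PgMyb308-like libraries and 14.9 to 37.3 in EV. On the lower side they were LOC116195214 and LOC116213785. The 8 higher members summed to 1222 and 1859 normalized counts in the line 1712 libraries and to between 73.3 and 169 in the other libraries. The 14 lower members summed to 136 and 105 in line 1712 and to between 666 and 997 elsewhere.

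**Figure D1:**
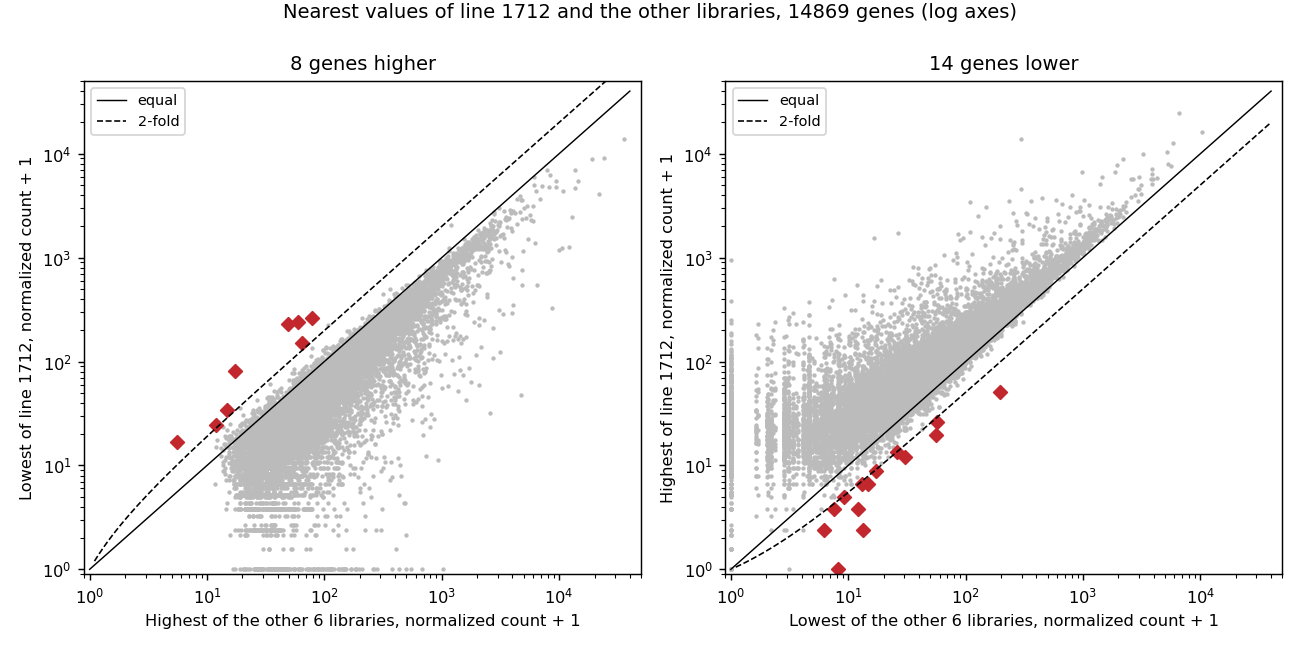
Nearest values of line 1712 and the other 6 libraries for the 14869 genes with a mean of at least 10 (both axes log, normalized count + 1). Left, the lowest line 1712 value against the highest of the others; right, the highest line 1712 value against the lowest of the others; diamonds are the 8 higher and 14 lower members, which lie beyond the dashed line of a 2-fold gap because that gap selected them.

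A first set of 3 of the 8 higher genes was close to silent in most of the other libraries, as was LOC116205739, described further below. LOC116187230, a protein-coding gene on chromosome 8 from 20584497 to 20586979, stood at 237 and 942 normalized counts in the line 1712 libraries. It stood at 58.2, 15.5 and 2.60 in the PgMyb308-like libraries, and at 3.61, 0 and 0 in EV. The lowest line 1712 value was thus 4.07 times the highest of the others, and the gap was set by PgMyb308-like replicate 1 alone. The summed reads of line 1712 were 51.1 times those of the other libraries at equal depth (95% exact binomial interval 38.9 to 68.5). This interval, like those below, treats the pooled reads as independent counts and leaves out the spread between libraries. Reads without molecular identifiers are not independent molecules, so even the counting error may be larger. The ratios come from the values that chose the genes.

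LOC116194986, protein-coding, on chromosome 2 from 2253538 to 2255519, stood at 80.8 and 93.5 normalized counts in line 1712. It stood at 16.4, 15.5 and 0 in the PgMyb308-like libraries and at 0, 0 and 2.07 in EV. It had the widest gap of the 8, with a nearest ratio of 4.93, and its line 1712 values differed by 1.16-fold. Summed at equal depth the ratio was 19.6 (95% exact binomial interval 13.1 to 30.5). In LOC116194986 as in LOC116187230, PgMyb308-like replicates 1 and 2 lay between line 1712 and the remaining 4 libraries.

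LOC116192795, protein-coding, spans 12219 bases of chromosome 1 from 40546910 to 40559128. It stood at 15.8 and 124 normalized counts in line 1712, at 0, 0 and 4.55 in the PgMyb308-like libraries and at 2.41, 0 and 0 in EV. Its 2 line 1712 values differed by 7.85-fold, and as wide a gap between these libraries, in log2 of the normalized count plus 1, was found in 1.72% of the 14869 genes. The other 6 libraries held 9 counts together and line 1712 held 117, a ratio of 32.8 at equal depth (95% exact binomial interval 16.7 to 73.5). The level of this gene in line 1712 was thus set mainly by replicate 2, as was that of LOC116187230, in which the libraries differed by 3.98-fold.

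A second set of 3 higher genes had a read in every library. LOC116195690, protein-coding, on chromosome 2 from 4417008 to 4418462, was the most even in line 1712, at 264.4 and 263.8 normalized counts. It stood at 70.9, 21.7 and 38.3 in the PgMyb308-like libraries (mean 43.6 ± 25.1, SD, n = 3) and at 42.1, 77.8 and 71.8 in EV (63.9 ± 19.1, SD, n = 3). The PgMyb308-like and EV libraries overlapped, and line 1712 lay 3.39 times above the highest of them. In the edgeR fit, its log2 fold change was 2.05 (standard error 0.43) against EV and 2.66 (standard error 0.45) against PgMyb308-like.

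LOC116205966 is a short protein-coding gene of 864 bases on chromosome 4, from 37180156 to 37181019. In line 1712 it stood at 325 and 229 normalized counts. The PgMyb308-like libraries held 1.82, 4.13 and 16.9 and the EV libraries 22.9, 48.0 and 13.8. The log2 fold change was 3.32 (standard error 0.64) against EV and 4.99 (standard error 0.70) against PgMyb308-like. Its nearest library was EV replicate 2, at a ratio of 4.77, and PgMyb308-like replicates 1 and 2, with 1 and 4 counts, were the lowest of all.

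LOC116212440, protein-coding, on chromosome 6 from 26362790 to 26363767, stood at 219 and 149.3 normalized counts in line 1712. The PgMyb308-like libraries held 20, 16.5 and 63.0 and the EV libraries 55.3, 23.5 and 27.6. Its log2 fold changes against the EV and PgMyb308-like groups were close to each other, at 2.4 (standard error 0.57) and 2.45 (standard error 0.57). PgMyb308-like replicate 3 came nearest to line 1712, at a ratio of 2.37, which makes this gene one of the pair just inside the fold of 2.

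The remaining 2 higher genes were the least abundant and lie close to each other on chromosome 1. LOC116205739, from 17829223 to 17833941, stood at 46.9 and 23.7 normalized counts in line 1712, at 0, 0 and 1.95 in the PgMyb308-like libraries and at 10.8, 1.07 and 5.53 in EV. LOC116195308, from 17920169 to 17923120, stood at 33.3 and 33.5 in line 1712, at 1.82, 0 and 9.10 in the PgMyb308-like libraries and at 10.8, 13.9 and 8.98 in EV. In both genes PgMyb308-like replicates 1 and 2 were the lowest libraries, and EV replicate 1 or 2 came nearest to line 1712, at ratios of 2.19 and 2.4. Summed at equal depth the ratios were 12.01 (95% exact binomial interval 7.45 to 20.3) and 4.19 (2.91 to 6.07).

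**Figure D2:**
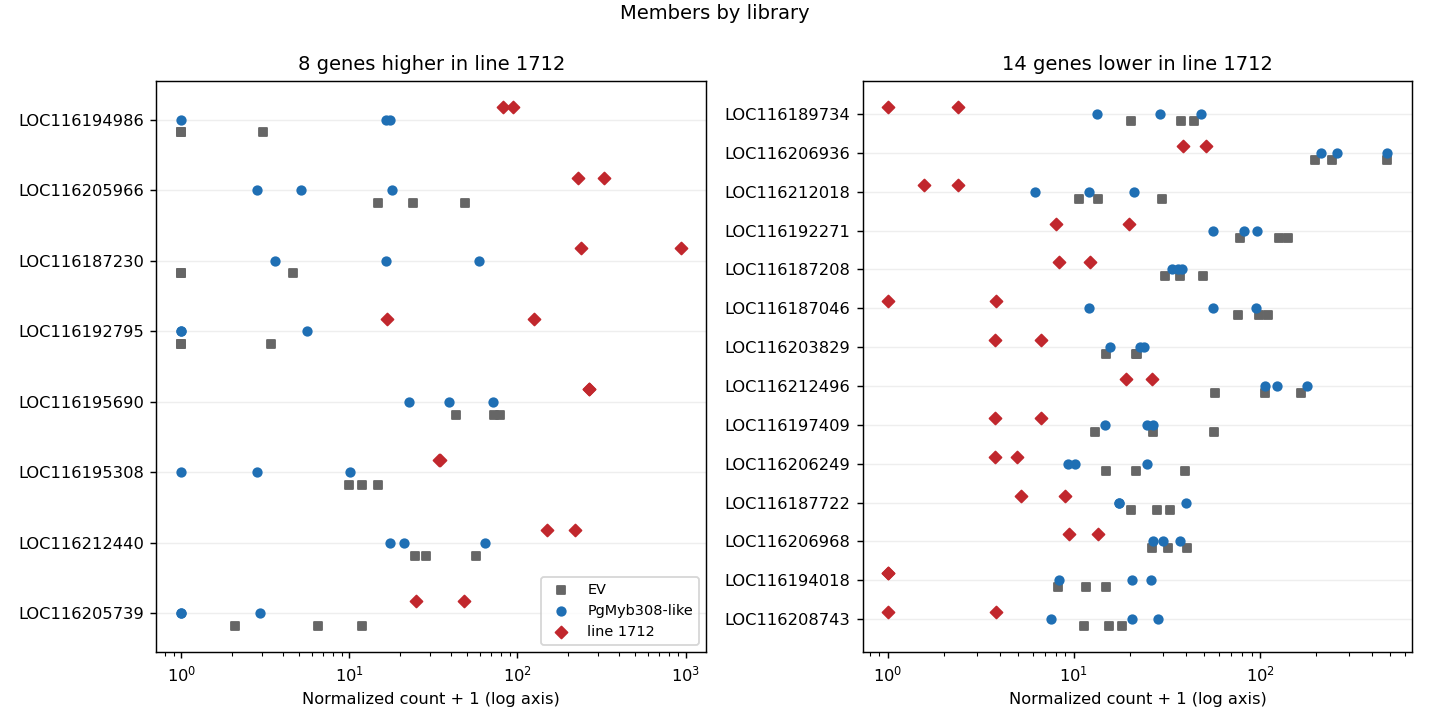
Normalized count + 1 (log axis) of the 8 higher (left) and 14 lower (right) members in each of the 8 libraries; each point is 1 library (diamonds line 1712, n = 2; circles PgMyb308-like, n = 3; squares EV, n = 3). The other 6 libraries of the higher members are widely spread, with 5 of 8 members at 0 in at least 1 of them, while those of the lower members lie closer together. The rule itself requires values above 0 in all 6 for the lower members only.

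On the lower side, 5 genes had 5 or fewer counts in line 1712. LOC116194018, a long non-coding RNA on chromosome 1 from 15637735 to 15640197, had 0 counts in both line 1712 libraries, where 37.3 would be expected at the level of the others. It stood at 7.27, 24.8 and 19.5 normalized counts in the PgMyb308-like libraries and at 7.22, 10.7 and 13.8 in EV. At a floor of 3 counts over the group it was at least 12.4-fold lower in line 1712, but with 3 counts in each library, the limit a count of 0 allows, its nearest ratio would be 1.72, under the fold of 2. Its mean of 10.4 normalized counts lies just inside the minimum of 10.

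LOC116187046, the second long non-coding RNA, on chromosome 8 from 14515380 to 14517206, stood at 2.82 and 0 normalized counts in line 1712. In EV it stood at 74.6, 98.1 and 108 (mean 93.7 ± 17.3, SD, n = 3). The PgMyb308-like libraries held 54.5, 93.9 and 11.1, of which replicate 3 came nearest to line 1712. Line 1712 had 5 counts where 178 would be expected, so that the other libraries stood 35.6 times higher at equal depth (95% exact binomial interval 15.1 to 110.1). In the 2 non-coding genes no line 1712 library held more than 5 counts.

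LOC116189734, protein-coding, lies from 30437 to 33395 of a scaffold that is not placed on a chromosome. It stood at 0 and 1.40 normalized counts in line 1712, which is a single read. The PgMyb308-like libraries held 47.3, 12.4 and 27.9 and the EV libraries 43.3, 19.2 and 36.6. With 1 count where 74.5 would be expected, the ratio was 74.5 with a 95% exact binomial interval of 13.2 to 2959, so that its size is loosely bounded above. Its nearest ratio of 8.84 was the widest among the members with a read in line 1712, and it was 7.31 with the 0 of replicate 1 taken as 3 counts.

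LOC116212018, protein-coding, on chromosome 6 from 6259475 to 6262282, had 1 count in each line 1712 library (0.56 and 1.40 normalized). The PgMyb308-like libraries held 20, 5.16 and 11.1 normalized counts and the EV libraries 9.62, 28.8 and 12.4. At equal depth the others stood 17.0 times higher (95% exact binomial interval 4.58 to 143). LOC116208743, protein-coding, on chromosome 5 from 25752068 to 25757895, stood at 2.82 and 0 in line 1712, at 27.3, 19.6 and 6.50 in the PgMyb308-like libraries and at 14.4, 17.1 and 10.4 in EV (ratio 6.90, 95% exact binomial interval 2.85 to 21.8). For this gene too 3 counts in line 1712 replicate 2 would stand at 4.19 and bring the nearest ratio to 1.55, under the fold of 2.

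The 3 most abundant lower genes had counts in both line 1712 libraries that allow a fitted fold change. LOC116206936, protein-coding, on chromosome 5 from 28699115 to 28700663, was the most abundant of all 22, with a mean of 244 normalized counts. It stood at 50.3 and 37.7 in line 1712, at 211, 481 and 257 in the PgMyb308-like libraries and at 481, 195 and 241 in EV. The PgMyb308-like and EV libraries covered the same range, and the log2 fold change of line 1712 was -2.76 (standard error 0.52) against EV and -2.82 (standard error 0.52) against PgMyb308-like. Its nearest ratio was 3.88.

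LOC116192271, a protein-coding gene of 832 bases on chromosome 1 from 49509732 to 49510563, stood at 18.6 and 6.98 normalized counts in line 1712. The PgMyb308-like libraries held 54.5, 94.95 and 81.2 and the EV libraries 141, 126 and 77.4. The log2 fold change was -3.04 (standard error 0.51) against EV and -2.47 (standard error 0.50) against PgMyb308-like. The line 1712 libraries differed by 2.67-fold here, and both lay under every other library.

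LOC116212496, protein-coding, on chromosome 6 from 17322131 to 17323576, stood at 18.1 and 25.1 normalized counts in line 1712. It stood at 105, 122 and 177 in the PgMyb308-like libraries and at 56.5, 106 and 164 in EV. EV replicate 1 came nearest, at a ratio of 2.25, and the other 5 libraries lay at 105 or above. The log2 fold change was -2.35 (standard error 0.50) against EV and -2.65 (standard error 0.50) against PgMyb308-like.

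The other 6 lower genes, all protein-coding, had means between 15.05 and 29.7 normalized counts. LOC116187208, on chromosome 8 from 8508382 to 8517121, was among the more even of them outside line 1712. Its line 1712 values were 7.34 and 11.2 normalized counts, and all 6 other libraries lay between 29.7 and 48.1. LOC116206968, on chromosome 5 from 5878977 to 5881144, was slightly more even, at 12.4 and 8.37 in line 1712 and between 25.3 and 39.5 elsewhere. Its nearest ratio of 2.03 is the lowest of all members, and its ratio of summed reads, 2.79, has a 95% exact binomial interval of 1.87 to 4.30.

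LOC116187722, on chromosome 1 from 9161268 to 9164465, also lies just inside the fold of 2, at a nearest ratio of 2.07. It stood at 7.91 and 4.19 normalized counts in line 1712, at 16.4, 16.5 and 39.0 in the PgMyb308-like libraries and at 19.3, 32.0 and 26.9 in EV. LOC116203829, on chromosome 4 from 7263927 to 7272410, stood at 5.65 and 2.79 in line 1712 and between 13.9 and 22.7 in the other libraries. In both genes the line 1712 values rest on 17 and 12 reads in all.

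LOC116197409, on chromosome 2 from 27097544 to 27104055, had the same line 1712 values of 5.65 and 2.79 normalized counts, against 12.03 to 55.3 in the other libraries. LOC116206249, on chromosome 4 from 1877964 to 1881497, stood at 3.95 and 2.79 in line 1712 and between 8.26 and 38.4 elsewhere. Of the 14 lower genes 11 had under 30 counts in line 1712.

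On the higher side, the genes just outside the fold of 2 were LOC116203341, with a nearest ratio of 1.92 (39.0 and 34.9 normalized counts in line 1712 and up to 18.2 elsewhere), and LOC116202073, at 1.78. On the lower side they were LOC116198004, at 1.94, and LOC116208882, at 1.89. A further 36 genes met the fold of the higher rule and 20 that of the lower rule with a mean under 10. The nearest of these were LOC116194543 (mean 9.75) and LOC116214800 (9.73) on the higher side, and LOC116211841 (9.42) and LOC116187467 (8.83) on the lower side. LOC116194543 stood at 12.4 and 65.6 normalized counts in line 1712 and had no read in any other library.

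The 2 directions differed in how the other libraries behaved, in part because the rule asks different things of them. The mean levels of PgMyb308-like and EV were within 2-fold of each other in all 14 lower genes and in 3 of the 8 higher genes, and in 87.5% of the 14869 genes. Over the 6 other libraries the median standard deviation of the log2 level was 1.47 for the higher genes, 0.63 for the lower genes and 0.51 for all 14869. Among the higher genes 5 of 8 had a 0 in at least 1 of the 6 libraries, and among the lower genes 4 of 14 had a 0 in line 1712, while 3.85% of all genes had a 0 in any library. The median mean level was 48.9 normalized counts for the higher and 22.02 for the lower genes, against 58.5 for all. The rule favours genes with low values on 1 side, so these figures are descriptive.

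The line 1712 libraries were compared with each other in the same genes. They lay within 1.5-fold of each other in 5 of the 8 higher and 4 of the 14 lower genes, against 55.3% of the 14869 genes. Of the higher genes, 2 differed by more than 2-fold, LOC116187230 and LOC116192795, both with more reads per depth in replicate 2. Of the lower genes, 4 with a read in both libraries differed by more than 2-fold, each with 5 or fewer reads in replicate 2. In 10 of the 14 lower genes replicate 1, which is also the deeper library, held the higher of the values or tied at 0.

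**Figure D3:**
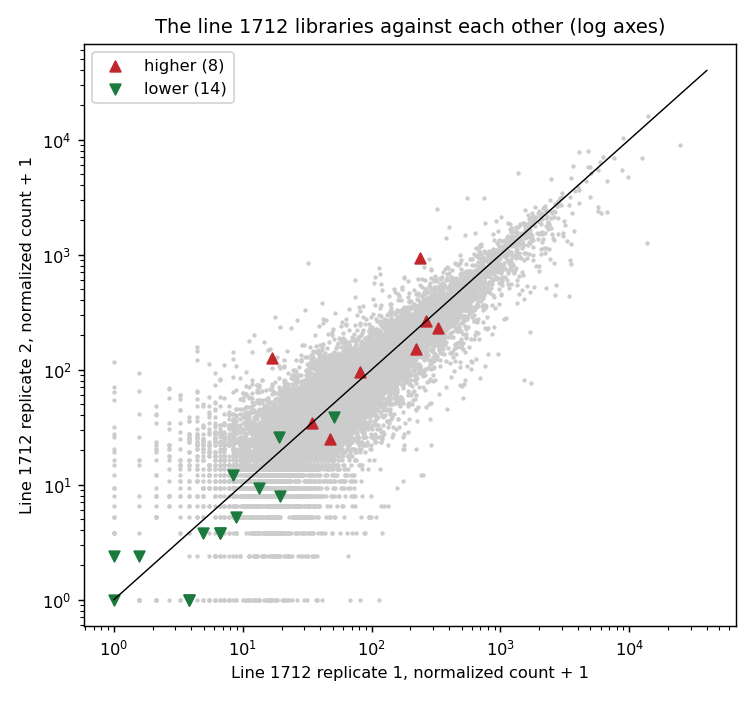
Line 1712 replicate 1 against replicate 2 for the 14869 genes with a mean of at least 10 (both axes log, normalized count + 1); up triangles are the 8 higher members, down triangles the 14 lower members, and the line marks equal values. LOC116187230 (237 and 942) and LOC116192795 (15.8 and 124) lie farthest above the line among the members.

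The members lie on several chromosomes. Chromosome 1, with 15.1% of the 14869 genes, held 6 of the 22. Chromosomes 2, 4, 5, 6 and 8, with 9.27% to 16.2% of the genes each, held 3 each. Of the rest, 1 was unplaced, and chromosomes 3 and 7, with 12.7% and 10.54% of the genes, held none. All 8 higher genes encode proteins, and 2 of the 14 lower genes are long non-coding RNAs, which make up 2.1% of the 14869 genes. A single RefSeq transcript was annotated for 7 of the 8 higher and 11 of the 14 lower genes, against 65.8% of all. The median span was 2232 bases for the higher, 2884 bases for the lower and 3217 bases for all genes.

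The members closest to each other were LOC116205739 and LOC116195308, both higher. On chromosome 1 the start of LOC116195308 lies 86228 bases beyond the end of LOC116205739, with 4 annotated genes between them. Of these genes 3 were in the table, and the pair with a mean of at least 10 showed little difference. LOC116205751 differed by -0.35 and LOC116192766 by 0.28, as log2 of the line 1712 mean plus 1 minus the same for the other 6 libraries. The third, LOC116197918, had a mean of 1.62 normalized counts and a difference of 2.11, with 3.39 and 6.98 in line 1712 and at most 2.60 elsewhere. The next closest members of the same direction lie 2161489 bases apart, on chromosome 2.

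**Figure D4:**
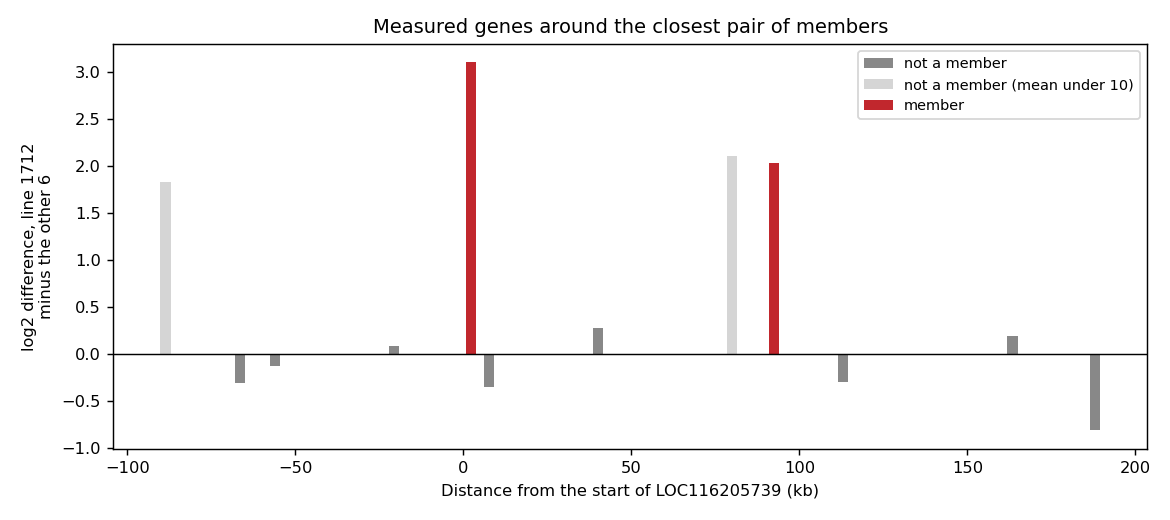
Measured genes around LOC116205739 and LOC116195308, by distance in kb from the start of LOC116205739; bar height is the log2 difference of the mean normalized count + 1, line 1712 minus the other 6 libraries. The 2 members (differences of 3.10 and 2.03) are separated by genes with differences of -0.35 and 0.28 and by a gene with a mean under 10 (pale bar).

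Because 3′ ends were extended for counting, a read may be given to the gene next to its own. The nearest genes with a mean of at least 10, on either side of the 21 members placed on a chromosome, were examined. Genes of a lower mean were passed over and strand was not used, so that a neighbour was not always the adjacent gene. LOC116208577 lay 279589 bases from LOC116208743, with 21 annotated genes between them. The 42 neighbours were not chosen by the rule, and none is itself a member. In 3 of them (7.14%) line 1712 and the other libraries did not overlap, against 698 of the 14869 genes (4.69%). In 7 (16.7%) the log2 difference of the means was 1 or more in size, against 5.98% of all genes. All 7 were lower in line 1712, 4 of them beside a lower member. In LOC116187190 and LOC116207095 the difference was carried by PgMyb308-like replicate 1, at 169 and 220 normalized counts. The other libraries outside line 1712 held 0 to 7.46 and 0.69 to 15.5. Of 41 neighbours tested, edgeR's quasi-likelihood test called 0 in the 3 comparisons, as did DESeq2, with 2, 3 and 3 at an unadjusted p under 0.05 in edgeR.

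The neighbour with the clearest separation in the same direction as its member was LOC116194010, 5499 bases from LOC116194018. It stood at 0 and 2.79 normalized counts in line 1712, at 10.9, 11.4 and 37.0 in the PgMyb308-like libraries and at 14.4, 5.33 and 4.84 in EV. In line 1712 replicate 2, 3 counts stand at 4.19, so the line 1712 values of LOC116194010 rest on few reads. Its log2 fold change against the other 6 libraries was -3.50 (standard error 1.35), which edgeR did not call (adjusted p = 0.9996), nor did DESeq2 (adjusted p = 0.789). LOC116206703, on the left of LOC116206936, stood at 40.1 and 48.9 normalized counts in line 1712 and at 60.8 to 134 elsewhere. LOC116196285, on the right of the higher gene LOC116195690, went the other way, at 24.9 and 22.3 against 30.1 to 148.

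Some members adjoin or overlap other genes. LOC116203829 overlaps LOC116203832 by 294 bases, LOC116197409 holds 2 annotated long non-coding RNAs within its span, and LOC116205739 ends 41 bases before the start of LOC116205751. In LOC116203832 the line 1712 libraries stood at 16.4 and 40.5 normalized counts and the others between 18.04 and 100.02, so that the groups overlapped. LOC116205751 stood at 49.1 and 23.7 in line 1712 and between 41.5 and 65.5 in the others. How reads were shared between these genes, or among near-identical gene copies, was not tested.

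**Figure D5:**
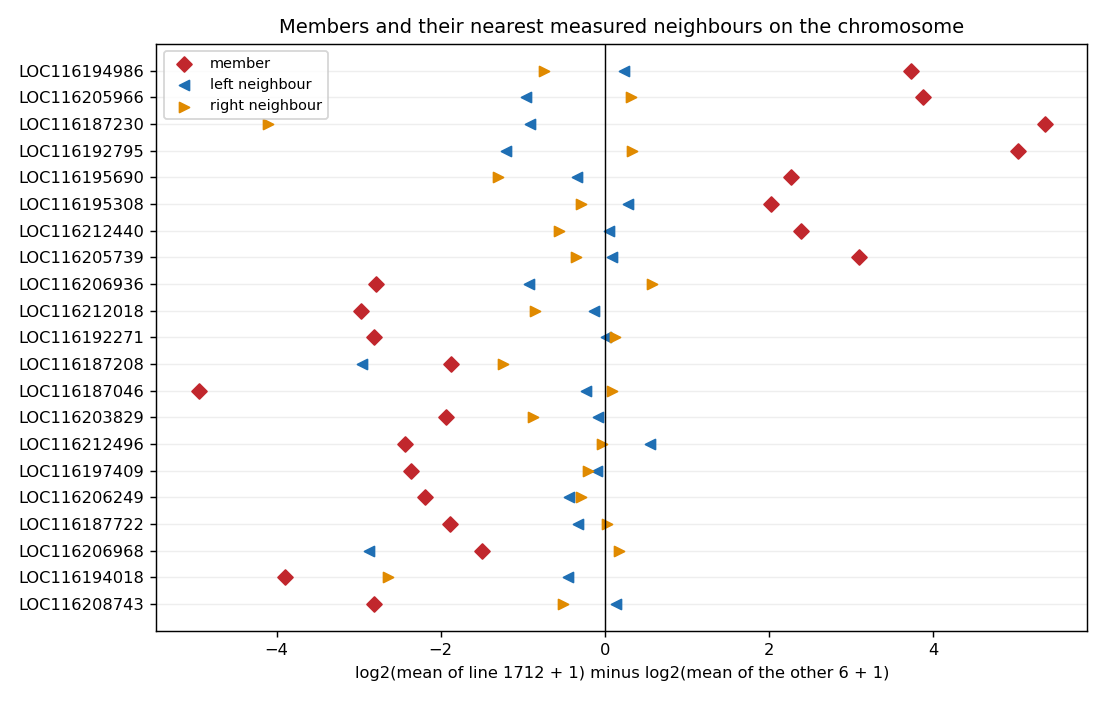
Log2 difference of the mean normalized count + 1 (line 1712 minus the other 6 libraries) for the 21 placed members (diamonds) and their nearest neighbours with a mean of at least 10 on the left and right (triangles). Neighbours range from -4.11 to 0.58, and 3 of the 42 do not overlap between line 1712 and the others.

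Fits across all 15957 genes that passed the filter on low counts used the same libraries that chose the members, so that the members' fold changes above describe values already selected on, and the counts of members called below are no support for them. Calls required an adjusted p (Benjamini-Hochberg) below 0.05 together with a log2 fold change of more than 1 in size. All 22 members passed the filter. Against EV, edgeR's quasi-likelihood test called 1 gene (0.00627%), which is not a member, with 679 at an unadjusted p under 0.05, and DESeq2 called 79 (0.495%), of which 10 were members. Against PgMyb308-like edgeR called 0 (0%), with 567 at an unadjusted p under 0.05, and DESeq2 called 12 (0.0752%), 6 of them members. Against the other 6 libraries together edgeR called 0 (0%), with 476 at an unadjusted p under 0.05, and DESeq2 called 19 (0.119%), 10 of them members.

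Without PgMyb308-like replicate 3 edgeR called 17, 4 and 8 genes in the 3 comparisons. The genes that met the rules also depended on single libraries. Without line 1712 replicate 1 or 2, 50 and 51 genes met the higher rule and 232 and 127 the lower rule. These held 7 and 6 of the 8 higher members and, both times, all 14 lower members. Without PgMyb308-like replicate 1 the counts were 16 and 22, with 7 and 10 of the members among them. Without EV replicate 1 they were 9 and 23, with 6 and 12 of the members. Without PgMyb308-like replicate 3, 7 genes met the higher rule, of which 2 were among the 8, since the step that drops genes then compares 2 libraries with 3. In the higher members lost, PgMyb308-like replicates 1 and 2 lay wholly above or wholly below EV. Their overlap with EV thus rested on replicate 3.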

How the data were processed

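Hairy root RNA from 8 libraries (2 labelled line 1712, 3 PgMyb308-like, 3 EV) was profiled by TranSeq. The authors aligned reads with STAR 2.4.2a and deposited raw counts made with HTSeq 0.6.1p1 over the terminal bases of genes, after lengthening the annotated 3′ exon. Also named in the submitters' processing notes are cutadapt, bcl2fastq 2.17.1.14, DESeq2 1.10.1 and DESeq. The other table the authors deposited is a normalized signal, these counts divided by 1 size factor per library. Of 18831 identifiers 18820 matched RefSeq (ASM765513v2).

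Members were chosen on the normalized counts. The members and lists were chosen with earlier results of these data known. All 8 libraries entered 1 fit of raw counts in edgeR 4.0.16 (R 4.3.3; TMM, minimum count 10 and minimum total count 15, 5 residual degrees of freedom); DESeq2 1.42.0 was an alternative. Standard errors of log2 fold changes were taken as the absolute fold change over the root of F. Genes were named by rule (up to 10 per direction by nearest ratio with a 0 counted as 3 reads, 5 by mean, and those at the thresholds); LOC116208743 falls outside it and is given so that every member is accounted for. Lists of protein signatures and promoter motifs were not used, as no sequences were at hand, and the Myb transgenes and root markers were not checked. The p-values weigh differences between groups against the spread between libraries within groups, estimated over all groups together. Squared differences between library pairs of 1 group were 8.34 to 34.65 times those of counting noise alone (chi-square per degree of freedom). They were largest in the pairs with PgMyb308-like replicate 3. The choice of members and the fits were also run on simulated data. For the fits these were drawn from the fitted model, so that they do not test whether it suits these libraries. Alternatives were other scalings, filters, folds and means, a replicate block and each library left out.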

Additional observations from a re-analysis of the deposited data

How the results depend on the processing

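The rule that chose the 22 members fixes their direction under these alternatives, so it is not read as stability. DESeq2 called 79 genes against EV, 12 against PgMyb308-like and 19 against the other 6 libraries, where edgeR called 1, 0 and 0; the cause was not tested. Against EV edgeR called 0 at a mean of at least 50, which tests fewer genes, and 0 with the replicate block. Leaving out 1 library gave 0 to 17, 0 to 4 and 0 to 8 calls, with 17, 4 and 8 without PgMyb308-like replicate 3; where 1 line 1712 library was left, its spread was taken from the other groups. Nothing in the labels ties libraries of the same replicate number together, and their deviations correlated between -0.27 and 0.20, so the numbers were not taken as pairs.

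At a fold of 1.5 the rules kept 19 higher and 35 lower genes, and at 3, 5 and 5. At a mean of 5 they kept 14 and 21, at 20, 5 and 9, and at 50, 4 and 4. Leaving out 1 library gave 7 to 51 higher and 15 to 232 lower genes. With fewer libraries the fold can be met by more genes, and without a PgMyb308-like or EV library the step that drops genes can also remove more. TMM scaling kept all 8 higher and 13 of the 14 lower members, and library totals 7 and all 14. Few counts in line 1712 limit the size of the lower genes' differences.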
